A study of Mus musculus with 115 samples.

Results

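Interferon-stimulated genes are the genes that cells switch on when they sense interferon, and 42 autosomal members of this group were followed here in prostates of tumor-prone mice. The members were taken by symbol from a table of 45699 genes, all 42 were found there, and 41 of them had a mean of at least 1 TPM over all libraries and entered the tests. Oas2 stayed under that mean. RNA was sequenced from bulk prostate tissue of (TRAMP x WSB/EiJ) F2 males. The study took RNA from the ventral prostate where a prostate was small. It used organ weight as tumor burden without checking for tumor by pathology. Prostate weights were not used here. The libraries, each titled with its own W number, carry 1 label: F2 offspring, positive for the transgene. The titles do not say that each library is a separate mouse, and the tests treated libraries as independent. The libraries outnumber the mice that the study's methods give for RNA sequencing. The labels do not tell any of the libraries apart, and all were used. The TRAMP transgene expresses the SV40 T antigen from a probasin promoter in prostate epithelium. The WSB/EiJ parent comes from wild mice, and the F2 males segregate C57BL/6 and WSB/EiJ alleles. Mice were kept to a fixed age or to an earlier humane endpoint, and the age of each mouse was not used here. No transgene-negative library was analysed here, and no interferon treatment was given. The members were described across the libraries and against 3 genes that mark other features of the tissue: Ptprc (CD45, leukocytes), Mki67 (proliferating cells) and Chga (chromogranin A, neuroendocrine cells).

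Type I and type II interferons bind receptors at the cell surface, whose JAK kinases phosphorylate STAT proteins. STAT2 joins IRF9 in the complex ISGF3, which binds the interferon-stimulated response element (ISRE) near target genes. Many products of these targets sense or degrade viral nucleic acid, and IRF7, STAT2 and IRF9 also feed the response itself. In tumors the same genes can be expressed by leukocytes, stroma and tumor cells, and a bulk library sums over all of them.

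The ISRE is known by a direct repeat, and its core spelled GAAANNGAAA was searched on both strands of the 250 bases before each gene's start in RefSeq (GRCm38.p6). A window was found for 32 members, and 13 of them (40.6%) held at least 1 match, beside 936 of 27025 genes with a window (3.46%). The 13 are Isg15, Oas1a, Oas3, Ifit1, Ifit3, Stat2, Rsad2, Bst2, Trim30a, Gbp2, Gbp3, Gbp7 and Cxcl10. A match is a run of letters and not a measured binding site. Stretches of 6 genes with a match are shown. Isg15, Oas1a and Ifit1 stand for the best-known families of the group. Trim30a, Gbp2 and Gbp7 are the members with a match among those nearest to Ptprc in the results that follow. Trim30a also has a second window, which held no match. Capitals mark matches, which overlap in Isg15 and Oas1a, and each stretch reads 5′ to 3′ on the gene's own strand.

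Isg15 (chr4:156200850-156200921, minus strand): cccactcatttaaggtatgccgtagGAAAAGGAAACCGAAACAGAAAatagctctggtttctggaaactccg

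Oas1a (chr5:120907526-120907570, minus strand): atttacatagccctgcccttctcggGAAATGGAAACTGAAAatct

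Ifit1 (chr19:34640779-34640838, plus strand): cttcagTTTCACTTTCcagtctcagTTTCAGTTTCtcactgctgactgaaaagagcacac

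Trim30a (chr7:104465195-104465254, minus strand): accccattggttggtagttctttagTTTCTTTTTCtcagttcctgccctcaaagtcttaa

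Gbp2 (chr3:142620579-142620638, plus strand): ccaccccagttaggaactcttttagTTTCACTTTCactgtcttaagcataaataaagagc

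Gbp7 (chr3:142530258-142530317, plus strand): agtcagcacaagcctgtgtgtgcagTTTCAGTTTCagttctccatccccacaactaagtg

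In Isg15 and Oas1a the repeat reads GAAA on the gene's strand, 78 and 20 bases before the start at its first base. In Ifit1, Trim30a, Gbp2 and Gbp7 it reads as the reverse complement, and the match nearest to the start begins 85, 36, 59 and 53 bases before it. No match stood in the windows of Irf7, Ddx58, Parp12, Herc6 and Samd9l, which says only that these letters are not in the 250 bases searched. Samd9l is also among the members nearest to Ptprc, as is Parp14, for which no window was found.

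The deposited values are TPM, which is scaled to a constant sum in each library, allows for transcript length and keeps no depth. The reads behind each value are therefore unknown, and between 10358 and 15824 genes reached 1 TPM per library. Over all genes the first principal component (48.7% of the variance) separated the libraries into 79 and 36. The marker genes differed in range between these sets. Mki67 was between 0.39 and 25.7 TPM (median 4.23) in the 79 and between 20 and 144 TPM (median 83.5) in the 36. Chga was between 0.06 and 4.84 TPM (median 0.3) in the 79, and between 0.15 and 479 TPM (median 57.2) in the 36. Ptprc overlapped almost fully, at 0.81 to 45.1 TPM (median 3.57) in the 79 and 0.6 to 22.8 TPM in the 36. Levels of 4 prostate epithelial markers (Krt8, Krt18, Tgm4 and Hoxb13) were summed. The sum was 250.2 to 17720 TPM in the 79 and 8.23 to 2666 TPM in the 36. Tgm4 weighs most in it, with a median of 2963 TPM over all libraries, beside 55.2 TPM for Hoxb13. Hoxb13 reached 1 TPM in 110 libraries, with a 10th percentile of 18.9 TPM. Tgm4 and Hoxb13 were lowest in W1154 of the 79, Krt8 and Krt18 in W1103 and W4072 of the 36. Whether the labelled tissue was marked less clearly in the 36 cannot be read from this sum alone. The principal component used the members too, so member levels of the 79 and the 36 are set side by side with no test, and every correlation was computed within one set. A pair of libraries, W7822 and W78022, have nearly the same title, and leaving out the second moved none of the counts of members below by more than 1.5 times. In the 79, 6 libraries with consecutive titles, W5000 to W5005, stood at the low end together. Their mean z-score over the members was -1.74 to -1.19, with Mki67 at 0.39 to 0.93 TPM and Ptprc at 0.88 to 1.9 TPM.

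The members were found at readable levels in most of the prostates. A level of 1 TPM or more was reached in at least 50% of the libraries by 40 of the 42, and in every library by 10. The median of a member over all libraries ran from 0.44 TPM (Oas2) to 72.2 TPM (Ifi27l2a), and the middle member had 4.47 TPM, beside 5.59 TPM for all genes tested. Libraries differed widely in the summed level of the 42 members, from 67.9 to 2115 TPM with a median of 351 TPM. The ratio of the 90th to the 10th percentile library had a median of 10.3 over the members and of 3.98 over all genes tested with a 10th percentile above 0. The median was higher in the 79 libraries for 33 members and higher in the 36 for 9, of which Herc6, Ifit2 and Cmpk2 had the widest gaps, at 2.51 and 7.06, 2.73 and 6.28, and 3.4 and 5.76 TPM. The members lie on 14 chromosomes, and the most on any were 6, on each of chromosomes 5, 11 and 16.

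**Figure D1:**
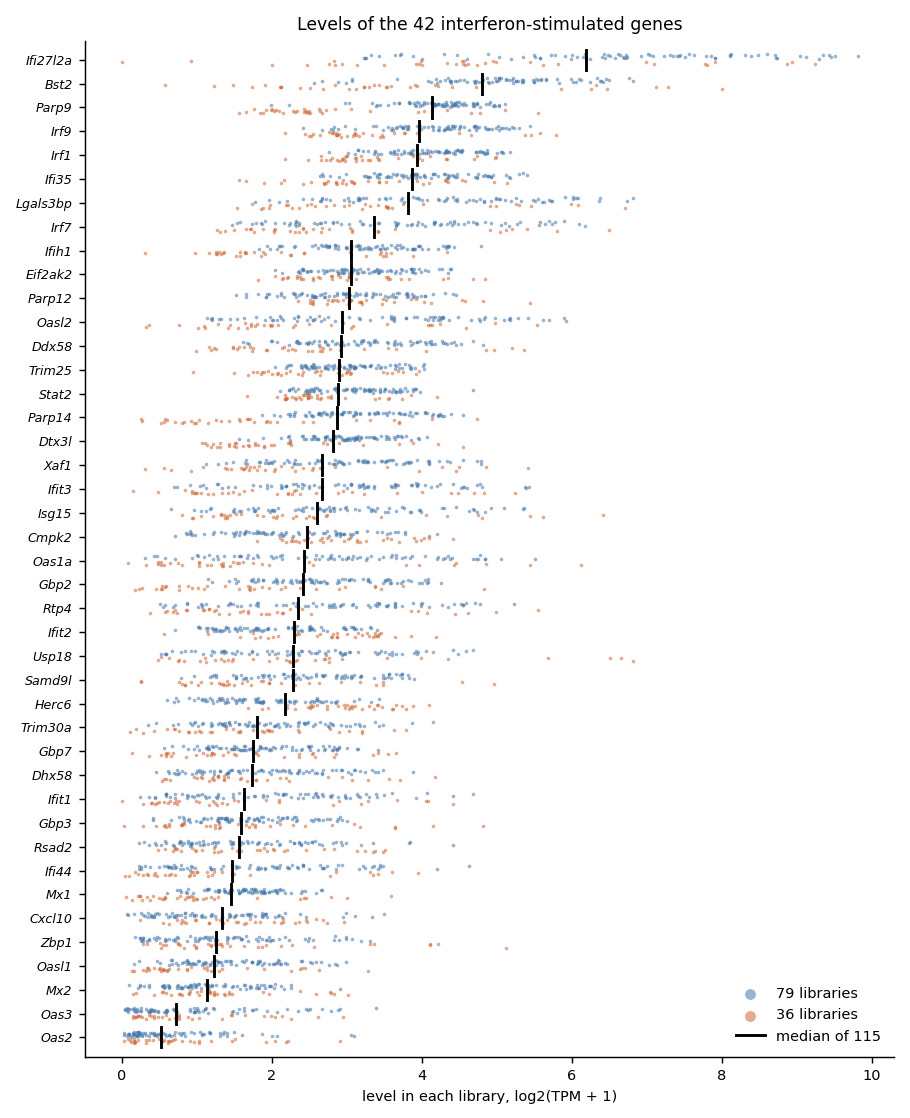
Level of each member in each library as log2(TPM + 1), ordered by the median over all libraries (black bar), with the 79 libraries in blue and the 36 in orange. Ifi27l2a and Bst2 stand highest, Oas2 and Oas3 lowest, and single libraries of the 36 hold many of the highest values.

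Among the transcription factors, Irf9, the DNA-binding partner of the STAT proteins in ISGF3, was between 3.52 and 54.1 TPM with a median of 14.5 TPM. Irf1, which is also induced by interferon gamma, was between 3.5 and 35.01 TPM with a median of 14.3 TPM. Both exceeded 1 TPM in every library. Irf7, the factor that amplifies type I interferon genes, had a lower median of 9.31 TPM and a wider range of 1.4 to 89.6 TPM. Stat2 was the steadiest member by the percentile ratio, at 3.21, with a range of 2.19 to 24.8 TPM and a median of 6.39 TPM.

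The nucleic acid sensors were spread over the order of medians, from the 9th to the 38th of the 42 members. Ifih1 (MDA5), which binds long double-stranded RNA, ran from 0.24 to 26.5 TPM (median 7.34) and Ddx58 (RIG-I), which binds RNA ends, from 0.98 to 40.1 TPM (median 6.57). Their relative Dhx58 (LGP2) was lower, with a median of 2.34 TPM and a highest library of 17.1 TPM. Eif2ak2 (PKR), the kinase that stops translation on double-stranded RNA, varied little, from 2.53 to 27.7 TPM with a median of 7.3 TPM. Zbp1, a sensor of left-handed nucleic acid, had a median of 1.39 TPM and reached 33.8 TPM in 1 library, with the next at 17.5 TPM.

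The oligoadenylate synthetase family, which activates RNase L, varied by different amounts. Oas1a ran from 0.06 to 68.5 TPM (median 4.39) with a percentile ratio of 35.2, and Oas3 from 0.03 to 9.49 TPM (median 0.65) with a ratio of 29.8. Oas2 reached 1 TPM in 30 libraries and 7.53 TPM at most. The OAS-like gene Oasl2 had the highest median of the family, 6.68 TPM, and Oasl1 had 1.35 TPM. Oas1a has a near-identical gene, Oas1g (97.6% identity over 98.7% of the transcript, median 2.31 TPM), so the split of reads between them is uncertain.

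The IFIT proteins bind foreign RNA. Ifit3 had a median of 5.34 TPM (0.11 to 42.2) and Ifit2 of 3.9 TPM (0.48 to 17.2). Ifit1 was listed at 0 in 1 library and reached 24.7 TPM, with a median of 2.1 TPM. Ifit3 shares 97.8% identity with Ifit3b over 97.4% of its transcript, and its level is uncertain in the same way.

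Of the GTPases, the guanylate-binding proteins Gbp2, Gbp3 and Gbp7 had medians of 4.34, 2 and 2.36 TPM and highest values of 27.4, 27.2 and 11.6 TPM. The dynamin-like Mx1 was between 0.04 and 11.1 TPM with a median of 1.74 TPM. Its relative Mx2 was between 0.07 and 7.06 TPM with a median of 1.2 TPM. Mx1 had a median of 2.11 TPM in the 79 libraries and 0.84 TPM in the 36.

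Isg15, the ubiquitin-like modifier, was between 0.58 and 84.3 TPM (median 5.06). Usp18, which removes it and restrains the receptor, had a median of 3.88 TPM and reached 112.1 and 99.6 TPM in its highest pair of libraries. Herc6, the mouse ligase for Isg15, ran from 0.52 to 16.1 TPM with a median of 3.51 TPM, and was the member with the widest rise from the 79 to the 36, where Isg15 had medians of 5.82 and 3.18 TPM. Among the PARP enzymes, Parp9 had a median of 16.5 TPM, Parp12 of 7.18 TPM and Parp14 of 6.31 TPM. Parp9 and Dtx3l, the partner ligase, lie on opposite strands and share 458 bases of exon, and no source used here says that strand was kept, so reads there cannot be assigned.

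The highest member was Ifi27l2a, a small interferon-induced protein, which ran from a library listed at 0 to 896.6 TPM, with the widest percentile ratio of all members, 48.2. Bst2 (tetherin), which holds budding virions at the cell surface, ran from 0.49 to 255 TPM (median 26.9). Lgals3bp, a secreted glycoprotein, had a median of 13.1 TPM and reached 111.8 TPM, and Ifi35 a median of 13.6 TPM. Rsad2 (viperin) and its neighbor Cmpk2, which act together on nucleotides, had medians of 1.94 and 4.55 TPM. Cxcl10, the chemokine that draws T cells, had a median of 1.53 TPM and at most 10.3 TPM. Trim25, Xaf1, Rtp4, Samd9l, Trim30a and Ifi44 had medians of 6.46, 5.36, 4.07, 3.85, 2.5 and 1.76 TPM. Exons also overlap those of other expressed genes, among them Cxcl10 with Art3 (133 bases), Irf9 with Rnf31 (123) and Irf7 with Phrf1 (45).

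One library of the 36, W1790, held the highest value of 21 of the 42 members, and another of the 36, W992, the lowest value of 13. In W1790 Ptprc was 22.8, Mki67 72.9 and Chga 2.55 TPM, and the neutrophil genes S100a8 and S100a9 were at their highest there, at 113.7 and 120.3 TPM. In W992 the same 3 genes were at 0.72, 80.2 and 291 TPM. The library with the highest Ptprc of the 79, at 45.1 TPM, held the highest value of 1 member, Trim30a.

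The members varied together. Within the 79 libraries the median Pearson r of a member with the mean z-score of the others was 0.931, and within the 36 it was 0.918. Over single pairs of members the median r was 0.856 in the 79, beside 0.424 over all pairs of genes tested, and 0.832 in the 36, beside 0.141. These are descriptions without a test, since the members were grouped as interferon-induced to begin with. They share the scaling of each library, and under median-of-ratios scaling the median over member pairs was 0.782 in the 79 and 0.814 in the 36. Without W5000 to W5005 it was 0.844 in the 79, beside 0.440 over all pairs.

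**Figure D2:**
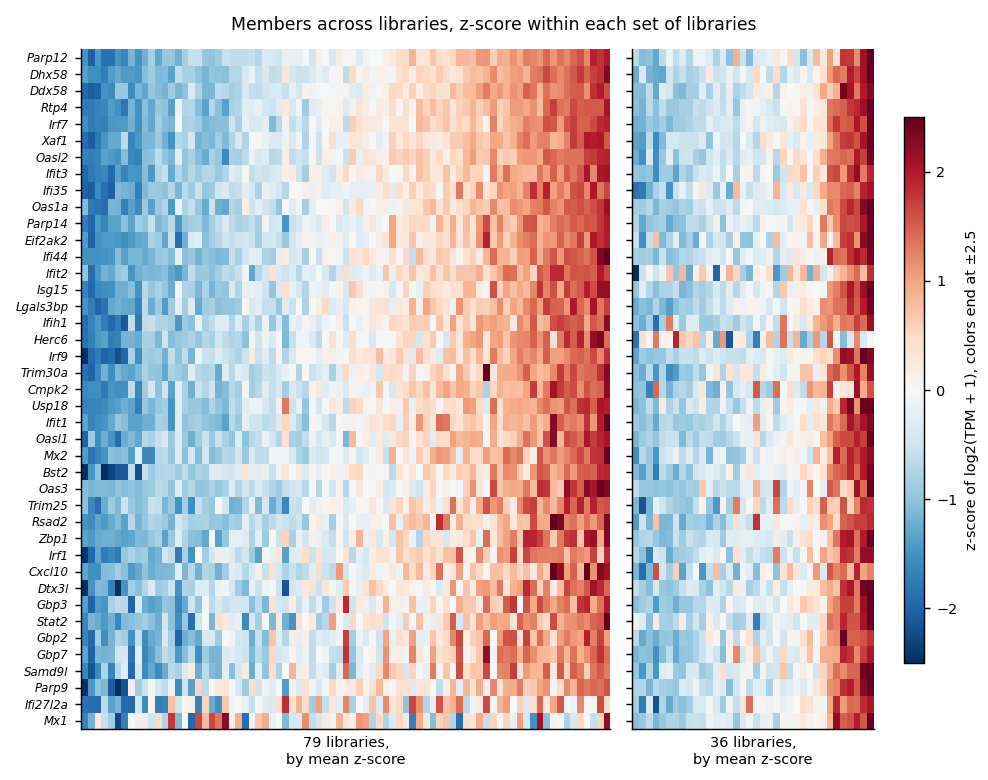
z-score of log2(TPM + 1) of the 41 tested members (rows) within the 79 and within the 36 libraries, with libraries ordered by the mean over members and rows by r with the other members in the 79. Most rows run from low to high together, Mx1 does not in the 79, Herc6 does not in the 36, and 7 libraries at the right of the 36 stand above the rest.

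In the 79 libraries the members nearest to the mean of the others were Parp12 (r = 0.980), Dhx58 (0.975), Ddx58 (0.974), Rtp4 (0.964) and Irf7 (0.960). In the 36 they were Rtp4 (0.980), Oas1a (0.978), Irf7 (0.976), Oasl1 (0.971) and Lgals3bp (0.966). Irf7 and Rtp4, a chaperone of receptor transport, were among the 5 nearest in both sets.

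Mx1 stood apart in the 79, where its r with the mean of the others was 0.149. The next lowest were Ifi27l2a (0.579), Parp9 (0.772), Samd9l (0.809) and Gbp7 (0.839). In the 79 Mx1 ran from 0.52 to 5.36 TPM with a median of 2.11 TPM, and reached 1 TPM in 71 libraries. Over all libraries it was 36th of the 42 members by median, and the part of its level in this r was not tested. The genes most like it there were Eef2kmt (r = 0.708), Ccdc125 (0.683), Gpld1 (0.680), Trnt1 (0.680) and Cdpf1 (0.669), which were named after their values were seen. The member most like it was Parp9, with r = 0.497, which ranked 696 among all genes tested. In the 36 Mx1 moved with the others, with r = 0.949.

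Herc6 stood apart in the 36, with r = -0.0421 against the mean of the others, and was near the middle of the order in the 79 (r = 0.939). It was detected at 1 TPM or more in all 36 libraries, from 2.22 to 16.1 TPM. The genes most like it in the 36 were Gp1bb (0.670), Bdnf (0.663), Fat3 (0.660), Ntrk2 (0.656) and Gm12934 (0.648), also named after their values were seen. Herc6 shares 1269 exon bases on its strand with the transcript Gm45193, so its reads may not all be its own. After Herc6 the lowest in the 36 were Ifit2 (0.532), Cmpk2 (0.620), Cxcl10 (0.669) and Trim25 (0.776).

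**Figure D3:**
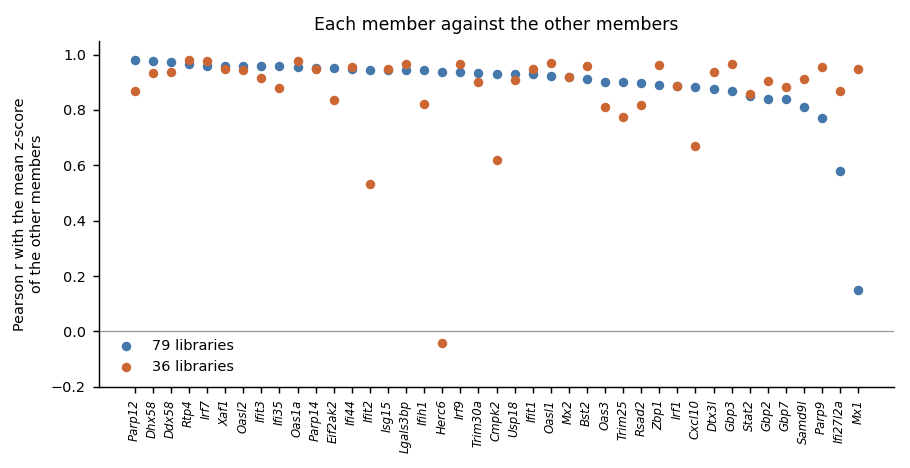
Pearson r of each tested member with the mean z-score of the other members, within the 79 libraries (blue) and the 36 (orange), ordered by the 79. Most points lie above 0.8, while Mx1 falls to 0.149 in the 79 and Herc6 to -0.0421 in the 36.

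In the 36 libraries the mean over members itself separated into 29 and 7 libraries by the same rule as the principal component. Within the lower 29 the median r of a member with the mean of the others was 0.709 and the median over member pairs was 0.506, beside 0.129 for all gene pairs. Values within the 29 are given beside the results that follow. The 29 were set by the level of the members themselves, which narrows the members' range. A smaller r or fewer calls within the 29 can therefore follow from that choice. No such gap was found in the 79.

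Against Ptprc, nearly every member rose with the leukocyte marker. In the 79 libraries 40 of 41 members had a positive r at an adjusted p under 0.05, and 0 had a negative one (two-sided permutation test on Pearson's r, Benjamini-Hochberg adjustment over all genes and the 3 marker genes). This stands against a high background, since 81.4% of all genes tested were called positive and 1.95% negative in the same libraries. The median r was 0.721 over members and 0.524 over all genes. Under median-of-ratios scaling the background fell to 24.1% while 38 of 41 members were called, with a median r of 0.5998 beside -0.00464 over all genes. Without W5000 to W5005, 40 members were called positive and 0 negative, beside 78.4% and 2.97% of all genes, with a median r of 0.680.

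Trim30a, a TRIM family protein, had the highest r with Ptprc in the 79, at 0.906 (rho = 0.909). It ran from 0.27 to 16.7 TPM there with a median of 2.78 TPM. Gbp7 followed at r = 0.901 (rho = 0.919) and Samd9l, a restriction factor of poxviruses, at 0.863 (rho = 0.896). Each had an adjusted p of 3.06e-05, the smallest the 100000 permutations could give (1e-05 before adjustment). With the 2 libraries left out whose Ptprc lay farthest from the median, r was 0.900, 0.909 and 0.883. The lowest were Mx1 (r = 0.0434, adjusted p = 0.757, permutation test), Parp9 (0.560) and Stat2 (0.619), the last 2 with an adjusted p of 3.06e-05.

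In the 36 libraries 39 of 41 members rose with Ptprc and 0 fell, beside 34.5% of all genes called positive and 11% called negative. The median r was 0.764 over members and 0.213 over all genes. Trim30a again had the highest r, at 0.933 (rho = 0.959), followed by Gbp2 at 0.906 (rho = 0.940) and Parp14 at 0.892 (rho = 0.943), each with an adjusted p of 0.000168 by the permutation test. Trim30a ran from 0.08 to 12.9 TPM in these libraries with a median of 1.94 TPM. Mx1, which did not pass in the 79, had r = 0.793 here (rho = 0.808, adjusted p = 0.000168, permutation test). Whether the r of Mx1 differs between the sets was not tested. The exceptions were Herc6 (r = -0.290, adjusted p = 0.154) and Ifit2 (r = 0.321, adjusted p = 0.110), followed by Cmpk2 (r = 0.475, adjusted p = 0.0134).

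Within the lower 29 of these libraries 28 of 41 members were called positive, beside 7.58% of all genes. Trim30a kept r = 0.932, Gbp2 0.894 and Parp14 0.858, while Stat2 fell from 0.645 to 0.151 and Parp12 from 0.592 to 0.147. By role, calls over all 36 libraries stand beside 34.5% of all genes called positive there. All 4 transcription factors, all 5 sensors, the 4 tested OAS genes and all 5 GTPases were called positive over the 36. So were 2 of 3 IFIT genes, 5 of 6 genes of ISG15 and ubiquitin ligation, and the 3 PARPs.

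Against Mki67, r was positive for all 41 tested members in the 79 and negative for 40 of them in the 36, where 22 passed. Most genes shared the positive sign in the 79, where the 25th percentile of r over all genes was 0.212. In the 36 the median r over all genes was near 0, at -0.0214. In the 79 libraries 40 of 41 members rose with Mki67 and 0 fell, beside 71.6% of all genes called positive and 1.27% negative. The median r was 0.778 over members and 0.433 over all genes. Under median-of-ratios scaling 39 members were called beside a background of 21.6%, with a median r of 0.672 over members and -0.0196 over all genes. Without W5000 to W5005, 40 members were called positive and 0 negative, beside 69.4% and 1.48% of all genes, with a median r of 0.720 over members. The highest were Herc6 (r = 0.888, rho = 0.866), Parp12 (r = 0.836, rho = 0.827) and Ifi35 (r = 0.834, rho = 0.818), each with an adjusted p of 3.06e-05 by the permutation test. With the 2 most extreme Mki67 libraries left out their r was 0.873, 0.818 and 0.820, and without W5000 to W5005 it was 0.860, 0.790 and 0.789. Mx1 was again the exception (r = 0.116, adjusted p = 0.396), with r = -0.0662 without W5000 to W5005. Ifi27l2a (r = 0.390, adjusted p = 0.000923) and Samd9l (r = 0.642) were the next lowest.

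Mki67 and Ptprc moved together in the 79 (r = 0.604, rho = 0.652, adjusted p = 3.06e-05, permutation test), so their relations to the members are not separate measurements. When Ptprc, Mki67 and Chga entered one limma fit, 40 members kept a positive slope with Ptprc and 39 with Mki67, beside 59.9% and 46.9% of all genes. Ifi27l2a, the weakest of the 40 called with Mki67, had a slope of -0.0870 with Mki67 in that fit (adjusted p = 0.692, limma). In the same fit the slopes of Gbp7, the gene near the top for Ptprc, were 0.627 with Ptprc and 0.135 with Mki67, in log2 units of the member per log2 unit of the marker, and those of Herc6 were 0.223 and 0.466.

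In the 36 libraries, where Mki67 was high throughout, 22 of 41 members fell as Mki67 rose and 0 rose, beside 20.4% of all genes called negative and 23% called positive. The median r was -0.426 over members and -0.0214 over all genes. Other proliferation genes did not share this relation. In the 36, r with the mean over members was -0.443 for Mki67, 0.0258 for Top2a, 0.0182 for Ccnb1 and 0.170 for Cdk1. The fall is therefore a result for Mki67 and not for proliferation genes as a group. At an unadjusted p under 0.05, 31 members were negative and 0 positive, with no share over all genes taken at that level. The lowest were Rsad2 (r = -0.607, rho = -0.538, adjusted p = 0.000617), Trim25 (r = -0.596, rho = -0.638, adjusted p = 0.000974) and Cmpk2 (r = -0.591, rho = -0.598, adjusted p = 0.00105), all by the permutation test. Trim25 is a ubiquitin ligase that acts on RIG-I. With the 2 most extreme Mki67 libraries left out these were -0.515, -0.611 and -0.540. At the other end were Herc6 (r = 0.289, adjusted p = 0.155), Ifit2 (r = -0.0466, adjusted p = 0.842) and Cxcl10 (r = -0.146, adjusted p = 0.506).

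These counts moved with the setting. Within the lower 29 libraries 10 members fell with Mki67, beside a background of 11%, and with the 3 marker genes in one limma fit 9 did, beside 10.9%. Under median-of-ratios scaling 37 members fell, beside 37.2%. Rsad2, Trim25 and Cmpk2 kept r = -0.626, -0.592 and -0.590 within the 29, and Irf7 went from -0.431 (adjusted p = 0.0256) to -0.328 (adjusted p = 0.238), both by the permutation test. Ptprc itself fell as Mki67 rose in the 36 (r = -0.420, rho = -0.506, adjusted p = 0.0289, permutation test), r = -0.560 without its 2 most extreme libraries, and the share of the members' relation that runs with Ptprc was not tested beyond the joint fit. The difference in r between the 79 and the 36 was not tested either. Where 0 members are given for a direction with Ptprc or Mki67, 0 also passed at an unadjusted p under 0.05 and 0 in the joint limma fit.

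**Figure D4:**
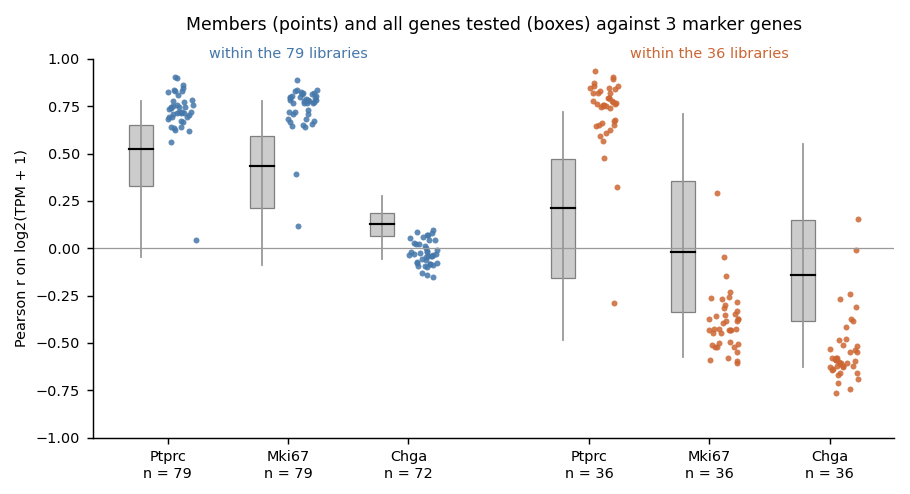
Pearson r of the members (points) with Ptprc, Mki67 and Chga within the 79 libraries (blue) and within the 36 (orange); grey boxes show the quartiles and median of all genes tested and lines the 5th to 95th percentile. With Ptprc most members lie above the box in both sets, and with Mki67 above it in the 79 and mostly below it in the 36.

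Irf7 shows the pattern in single libraries. In the 79 it ran from 1.76 to 71.3 TPM (median 12.9) and in the 36 from 1.4 to 89.6 TPM (median 4.67), so the sets overlapped over nearly the whole range. Its r with Mki67 was 0.781 (rho = 0.776, adjusted p = 3.06e-05, permutation test) in the 79 and -0.431 (rho = -0.525) in the 36. With Ptprc it was 0.690 (rho = 0.749) and 0.847 (rho = 0.884).

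**Figure D5:**
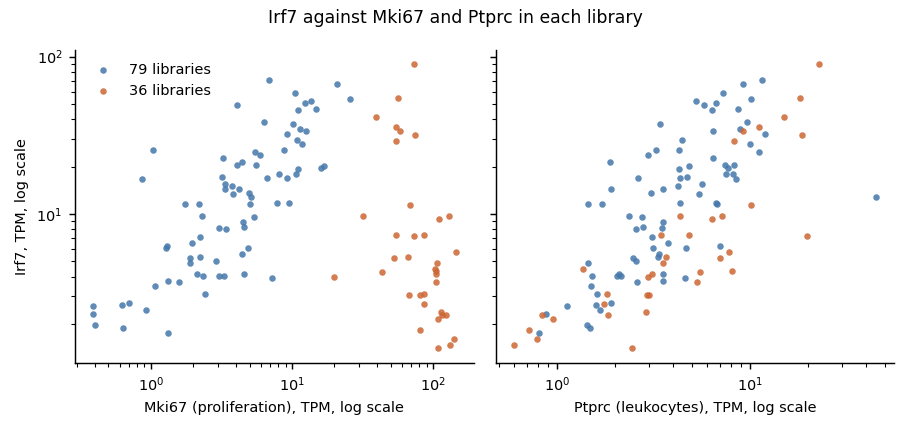
Irf7 against Mki67 (left) and Ptprc (right) in each library, in TPM on log axes, with the 79 libraries in blue and the 36 in orange. Irf7 rises with Mki67 in the 79, the 36 sit at high Mki67 over nearly the whole range of Irf7, and against Ptprc the sets overlap.

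Against Chga, nothing passed in the 79. There Chga itself separated into 72 libraries at or under 0.81 TPM and 7 at 1.19 TPM or more, so r was computed over the 72. Of the 41 members 0 were called positive and 0 negative, also at an unadjusted p under 0.05, beside 7.09% and 0.0616% of all genes. The median r was -0.0297 over members and 0.128 over all genes. The largest in size was Oasl2 (r = -0.151, adjusted p = 0.284), and Mx1 was the highest (r = 0.0966, adjusted p = 0.505). This depended on the scaling: with median-of-ratios scaling 34 members were called negative, beside 8.57% of all genes, and with the 20 genes of the largest share left out 23 were, beside 4.45%. The joint limma fit used all 79 libraries and not the 72. It called 1 member in each direction, Gbp7 up and Oasl1 down, beside 29.1% of all genes positive and 0.321% negative. With r also taken over all 79, 1 member was called in each direction, beside 28.4% positive and 0.376% negative. Without W5000 to W5005, 0 members were called over the 68 libraries left of the 72, beside 24% positive and 0.0684% negative.

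In the 36 libraries 35 of 41 members fell as Chga rose and 0 rose, beside 25% of all genes called negative and 10.3% positive. At an unadjusted p under 0.05, and in the joint limma fit, 0 rose as well. The median r was -0.588 over members and -0.140 over all genes. The lowest were Usp18 (r = -0.766, adjusted p = 0.000168), Ddx58 (r = -0.745, adjusted p = 0.000168) and Irf9 (r = -0.711, adjusted p = 0.000368), all by the permutation test. Their rho was smaller in size, at -0.389, -0.420 and -0.269, and 4 members passed by rank, beside 0.951% of all genes. With the 2 most extreme Chga libraries left out, r was -0.626, -0.640 and -0.555. The highest were Herc6 (r = 0.154), Cmpk2 (r = -0.00916) and Trim25 (r = -0.244), none of which passed.

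The negative relation to Chga rested on few libraries. Of the 36, 4 held Chga at 2.55 TPM or less and the other 32 at 21.2 TPM or more. Without those 4 libraries 0 members fell with Chga and 1 rose, Cmpk2 (r = 0.443, adjusted p = 0.0497, permutation test), beside 0.397% of all genes called negative and 14.1% positive. Within the lower 29 by member mean 0 members were called in either direction, beside 0.411% negative and 10.3% positive, so negative calls were lost over all genes as well as over the members. At an unadjusted p under 0.05 the counts were 0 negative and 3 positive without the 4, and 6 negative and 3 positive within the 29 (permutation test). The r of Usp18 was -0.210 without the 4 (adjusted p = 0.423) and -0.393 within the 29 (adjusted p = 0.136). Without the same 4 libraries 37 members still rose with Ptprc, beside 15% of all genes, and 21 fell with Mki67, beside 17.8%.

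Genes of the interferon pathway that are not members were measured in the same fits. The interferons themselves were near 0: of 11 ligand genes, including Ifnb1 and Ifng, 8 had a median listed at 0 TPM, the highest median was 0.15 TPM, the highest library had 1.8 TPM, and 0 entered the tests. Of the other 31 genes 29 were tested, all 6 receptors, the 3 kinases, 4 transcription factors, 11 sensors and adaptors and 5 negative regulators. With Ptprc 27 of the 29 rose in the 79, beside 81.4% of all genes, and 26 in the 36, beside 34.5%, and 0 fell. Within the lower 29 of the 36 libraries 9 rose, beside 7.58%, and without the 4 low-Chga libraries 18 did, beside 15%. Irf5, a factor of myeloid cells, led in the 79 (r = 0.950).

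With Mki67 28 of the 29 rose in the 79, led by Cgas, the DNA sensor (r = 0.922), beside 71.6% of all genes. In the 36, 14 fell and 1 rose, beside 20.4% and 23%, and within the lower 29 of these 8 fell and 2 rose, beside 11% and 21.2%. The one that rose was Aim2, a sensor of the inflammasome, at r = 0.552, and the receptor chain Ifnlr1 had r = -0.660. With Chga 0 were called in the 79, beside 7.09% of all genes positive and 0.0616% negative, and 6 were called positive there without W5000 to W5005, beside 24%. In the 36, 24 fell with Chga, beside 25% of all genes. Without the 4 low-Chga libraries 0 fell, beside 0.397%, and 4 rose, beside 14.1%: Socs3 (r = -0.468 over the 36 and 0.621 without the 4), Ptpn2 (-0.537 and 0.542), Tmem173 (-0.389 and 0.517) and Irf3 (-0.551 and 0.444). Of the non-members reported here, the 10 most like the mean of all members in the 79 were Irgm1 (r = 0.970), Ddx60 (0.958), Trim34a (0.958), Mitd1 (0.956), Irgm2 (0.952), Tap1 (0.949), Adar (0.946), Psmb8 (0.945), Helz2 (0.944) and Slfn2 (0.943).

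Markers of other cell types had an r with the member mean that varied by list, and their part in the results was not tested. In bulk tissue, fewer cells of a type and less RNA per cell cannot be told apart. A marker is called detected where 50% or more of the libraries reached 1 TPM. The summed level of 5 macrophage markers, all detected, was 11.5 to 510 TPM in the 79 and 11.6 to 403 TPM in the 36, and its r with the mean over members was 0.755 and 0.814. T cell genes were low: 0 of 5 were detected, with sums of 0.13 to 5.7 TPM in the 79 and 0.44 to 6.41 TPM in the 36, and r of 0.734 and 0.648. For 3 NK and cytotoxic genes, 0 detected, the sums were 0.21 to 13.2 TPM and 0.02 to 5.66 TPM, with r of 0.865 and 0.763. The 2 plasmacytoid dendritic cell genes Siglech and Ccr9, of the cells known for making type I interferon, summed to at most 2.27 TPM and 1.24 TPM, with r of 0.318 and 0.694. For 3 B cell genes r was 0.301 in the 79 and 0.0433 in the 36, for 3 neutrophil genes 0.329 and 0.570, and for 3 seminal vesicle genes -0.0343 and 0.288.

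Other lists differed between the sets of libraries. For 4 proliferation genes r with the member mean was 0.807 in the 79 and -0.0625 in the 36, for 5 stroma genes 0.404 and 0.746, and for 3 endothelial genes 0.342 and 0.721. The sum of the 4 prostate epithelial genes gave -0.315 and 0.724, and that of the 5 neuroendocrine genes 0.0739 and -0.675. The epithelial genes did not move alike. Tgm4, with a median of 2963 TPM over all libraries, had r of -0.314 in the 79 and 0.269 in the 36. Krt8 had 0.788 and 0.663, Krt18 0.465 and 0.803, and Hoxb13 0.126 and -0.537. Of 5 leukocyte genes the sum gave 0.0988 and 0.794. It was carried by Cd52, which had a median of 69.2 TPM and an r of -0.00743 in the 79, where Coro1a had 0.8005 and Laptm5 0.742. These values are descriptions over 79 and 36 libraries that share scaling, with no test.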

How the data were processed

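The authors depleted ribosomal RNA, trimmed reads with Trimmomatic, mapped them with Bowtie2 2.2.5 to an allele-specific C57BL/6 and WSB transcriptome (Seqnature, GRCm38), and quantified genes with RSEM 1.2.20; versions are from the submitters' processing notes, which also name CASAVA 1.8.2. The authors deposited TPM without counts, so depth is unknown and no count model was used. The annotation release is not given in the sources used here. Gene names and exons were taken from GENCODE M21 (45136 of 45699 genes) and promoter windows from RefSeq (GRCm38.p6).

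Values were tested as log2(TPM + 1) for the 14623 genes whose mean reached 1 TPM. Libraries were split where 2 fitted normal components gave a BIC lower by more than 10 than 1 component, Ashman D above 2 and at least 6 libraries each (first principal component: 196 and 6.10; Chga in the 79: 43.6 and 2.20; member mean in the 36: 12.2 and 4.97). Pearson's r and Spearman's rho of every gene with each of 3 marker genes were tested by 100000 permutations and adjusted over 43860 tests in the 79 and 43833 in the 36. Calls needed an adjusted p under 0.05. The script was tested on simulated data.

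The members and lists were chosen with earlier results of these data known. Genes named are the members, the 3 markers, the pathway list, the extremes of each relation and the 10 non-members most like the members. Some genes of these lists are not reported here and were left out of the counts. Alternatives were a pseudocount of 0.1, median-of-ratios scaling, TPM without the 20 genes of largest share, no filter, Spearman's rho, leaving out W78022 and a joint limma 3.58.1 fit; 4 more were added after seeing the data. BLAST+ 2.17.0 listed genes that match a member's transcript at 95% identity along 80% of its length. Software was R 4.3.3, matplotlib 3.10.9, scipy 1.17.1, pandas 2.3.3, numpy 2.4.6 and Python 3.11.15.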

Additional observations from a re-analysis of the deposited data

How the results depend on the processing

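No paired analysis was possible because all libraries carry 1 label and no replicate numbers. Under the alternative settings, 88 values stayed within 1.5 times the main count or near the main median and 8 moved. Under those chosen after seeing the data 15 stayed, among them all 7 without libraries W5000 to W5005, and 7 moved. Percentages in brackets are the share of all genes called. In the 79 libraries, members called negative with Chga went from 0 (0.0616%) to 34 with median-of-ratios scaling (8.57%). They went to 23 without the 20 genes of largest share (4.45%). The joint limma fit, which used all 79 libraries, called 1 (0.321%), and r over all 79 called 1 (0.376%). Members called positive with Chga went from 0 (7.09%) to 1 in the joint fit (29.1%) and 1 with r over all 79 (28.4%). In the 36, members called negative with Mki67 went from 22 (20.4%) to 37 with median-of-ratios scaling (37.2%). They were 9 in the joint fit (10.9%) and 10 in the lower 29 libraries (11%). Positive calls with Mki67 went from 0 (23%) to 1 without the 20 genes (34.6%). With Chga, negative calls in the 36 went from 35 (25%) to 4 by Spearman's rho (0.951%). They were 0 in the lower 29 (0.411%) and 0 without the 4 low-Chga libraries (0.397%). Positive calls with Chga went from 0 (10.3%) to 1 without those 4 libraries (14.1%). The median r of a member with the others in the lower 29 was 0.709. The cause was not tested. Depth is unknown, so members under 1 TPM are the least certain.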
